A study of Mus musculus with 4 samples.

Results

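The transcriptome of articular chondrocytes lacking the miR-23a and miR-23b clusters was compared with that of wild-type chondrocytes. The comparison covered 6763 of the 55450 genes in the deposited count table. These are the genes with 50 or more reads in the knockout and wild-type libraries together, a deposited TPM value (expression scaled for gene length and library size) and no place on the study's printed list of genes raised in both transcript and protein. That list was drawn up from ratios of the same libraries, so its genes were left aside in the upward direction only, and 51 of them had 50 or more reads. Genes were ranked by the ratio of TPM, Cart-miR-23clus KO over WT, and grouped by function.

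The Cart-miR-23clus KO library came from C57BL/6 mice carrying Col2a1-cre and miR-23a/b clusters flox/flox alleles, and the WT library from C57BL/6 mice labelled wild type, both 3 weeks of age. Cre was driven by the type II collagen promoter, and these libraries do not show which cells in the dish lost the clusters. The sources differ on the WT library, since the label and the study's results text say wild type, whereas its methods name Control chondrocytes, defined as floxed without Cre, for the sequencing. All mice were male. Chondrocytes were released from femoral head cartilage with collagenase, grown in serum to confluency and then seeded anew in plates before extraction. Levels in chondrocytes of miR-26a -/- mice, without treatment (miR-26a KO) and after miR-26a mimic transfection (miR-26a KO + mimic), also 3 weeks of age and of strain C57BL/6 and C57BL6/J respectively, are given beside the result where they help to place a value.

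MicroRNAs are short RNAs that pair through their seed with sites mostly in the 3′ UTR of an mRNA, and the usual outcome is less mRNA or less translation. Each miR-23 cluster is transcribed as a single RNA that gives a miR-23, a miR-27 and a miR-24. Both clusters are widely expressed, and they have been studied in cartilage, bone, fat and muscle. Loss of a cluster is expected to release its direct targets, among many indirect differences.

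Mature miRNAs of the clusters are shown because their seeds give the letters searched for in 3′ UTRs. Sequences are from RefSeq on GRCm38.p6, read 5′ to 3′, with the seed (bases 2 to 8) in capitals. miR-23a lies at chr8:84208563-84208583 and miR-27a at chr8:84208727-84208747. miR-27b lies at chr13:63300760-63300780. miR-24 has a copy in each cluster, at chr8:84208875-84208896 and chr13:63301251-63301272, and all are on the plus strand. The other member is miR-23b.
mmu-miR-23a-3p: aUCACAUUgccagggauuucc
mmu-miR-27a-3p: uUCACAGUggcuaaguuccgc
mmu-miR-27b-3p: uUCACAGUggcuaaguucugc
mmu-miR-24-3p: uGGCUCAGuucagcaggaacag
The miR-27 seeds are identical, and both copies of miR-24 give the same mature RNA. The libraries were made from the 3′ ends of polyadenylated mRNA, and the 6 miRNA hairpins had 0 reads in the WT, knockout and miR-26a KO libraries, so they hold no check of the deletion itself. Aopep, the gene that overlaps the miR-23b cluster on chromosome 13, had 254 reads in WT and 298 in the knockout, a TPM ratio of 1.29 with a 95% counting interval of 1.09 to 1.53.

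Reads assigned to genes numbered 1505805 in the WT library and 1336496 in the knockout. Each group had 1 library, so no test between genotypes was possible. Beside a ratio stands its exact 95% interval (Clopper-Pearson) from the reads in both libraries, which covers counting error only and compares these libraries rather than the genotypes. PCR copies were not told apart by molecular identifiers, so reads are not independent molecules. All 6 chondrocyte markers were present in both libraries, and their summed TPM was 10060 in WT, 7388 in the knockout, 7330 in miR-26a KO and 7189 in miR-26a KO + mimic. Their ratios ran from 0.402 for Matn1, 0.561 for Hapln1 and 0.620 for Col9a1 to 0.772 for Col2a1, 0.896 for Acan and 0.938 for Sox9. Endothelial and erythroid markers had 0 or 1 reads in both libraries. Osteoblast markers, in contrast, were present and unequal. The summed TPM of the 6 osteoblast markers was 5636 in WT, 946 in the knockout, 3309 in miR-26a KO and 3532 in miR-26a KO + mimic, and Ifitm5 and Dmp1 had 0 reads in the knockout against 34 and 4 in WT. Their part in the results on skeletal genes was not tested. In such bulk samples fewer cells of a type and less RNA per cell cannot be told apart. The share of TPM from mitochondrial mRNAs was 4.73% in WT and 6.22% in the knockout.

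Most genes were at like levels in the 2 libraries. The ratio lay between 0.5 and 2 for 6466 genes (95.6%), and the median log2 ratio was -0.025. It was above 2 for 141 genes and below 0.5 for 156. Over all 6814 genes with 50 or more reads and a TPM value, listed genes included, 2.82% were above 2 and 2.29% below 0.5. The counting interval lay above 1 for 982 genes and below 1 for 858, where the shares over all 6814 genes were 15.2% and 12.6%. With library totals on the TPM scale, an alternative chosen after seeing the data, the numbers were 884 and 977, so which side held more genes depended on the scale. For every gene past 2-fold the interval left out 1, which the minimum of 50 reads all but fixes and which lends those genes no support. The interval lay wholly above 2 for 28 genes and wholly below 0.5 for 44. With the listed genes counted the numbers were 56 and 44, so the order on the members is set by leaving those genes aside. Beyond 4-fold stood 11 members above 4 and 25 below 0.25, and with the listed genes counted 26 were above 4. At the thresholds, Stmn1 (2.01) and Egr1 (1.99) stood on either side of 2, and Fyn (0.498) and Nt5e (0.502) on either side of 0.5. The 66 genes with exactly 50 reads had ratios from 0.387 to 3.13, and the 76 genes with 49 reads, just under the minimum, from 0.319 to 3.80.

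**Figure D1:**
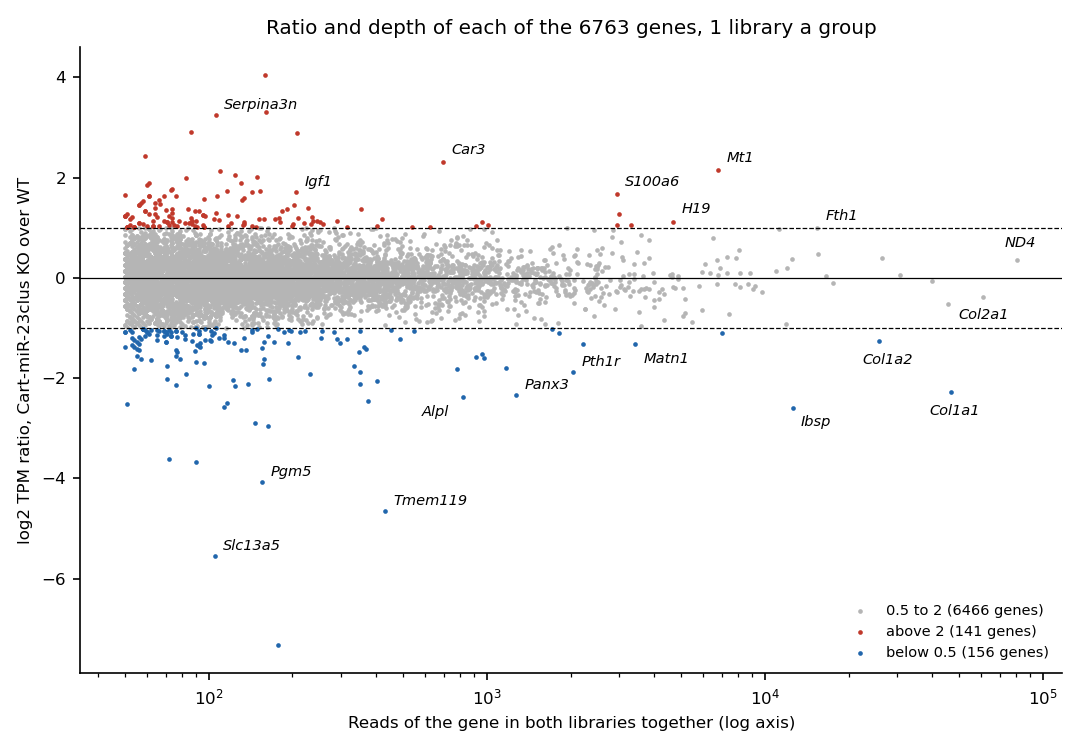
Log2 TPM ratio of Cart-miR-23clus KO over WT (vertical axis) against the reads of the gene in both libraries together (horizontal axis, log scale). Each of the 6763 points is a gene, red for the 141 above 2-fold, blue for the 156 below 0.5 and grey for the rest; dashed lines mark 2-fold. Col1a1 and Ibsp are the most deeply read genes among those with the lowest ratios, and Mt1 among those with the highest.

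Genes of bone matrix and of osteoblasts, the cells that lay down and mineralise bone, were among the groups with the lowest ratios. Of 32 such genes 12 had under 50 reads, and of the remaining 20 9 were below 0.5 and 1 was above 2. Intervals lay below 1 for 14 and above 1 for 2, and the median log2 ratio was -0.67 against -0.022 over all 6814 genes. Tmem119, a membrane protein that promotes osteoblast differentiation, was lowest, with 417 reads (178 TPM) in WT and 15 reads (7.05 TPM) in the knockout. Its ratio was 0.0396 (0.0220 to 0.0661), and the miR-26a KO libraries lay between at 36.1 and 67.0 TPM.

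Col1a1, a chain of type I collagen and the main protein of bone, was at 6328 TPM in WT and 1311 in the knockout, a ratio of 0.207 (0.202 to 0.212). Its partner chain Col1a2 differed less, from 21110 to 8798 TPM (0.417, 0.406 to 0.428). In absolute terms Col1a2 had the largest difference downward of any gene. Ibsp, bone sialoprotein, which nucleates mineral, was at 5063 TPM in WT and 842 in the knockout (0.166, 0.158 to 0.175), with 2967 and 3036 in the miR-26a KO libraries. Thus WT was highest, the knockout lowest and the other libraries between for both Col1a1 and Ibsp.

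Osteocalcin, a vitamin K-dependent protein of bone, is encoded by near-identical neighbouring genes whose reads may be split between them. Bglap2 had 131 and 16 reads and Bglap 98 and 15, with ratios of 0.135 and 0.169. The regulators were lower too. Sp7, or osterix, the transcription factor that commits cells to the osteoblast lineage, was at 49.8 TPM in WT and 16.7 in the knockout (0.335, 0.238 to 0.464). Creb3l1, an endoplasmic reticulum sensor that drives type I collagen transcription in osteoblasts, was at 277 and 91.1 TPM (0.329, 0.282 to 0.382). Runx2, which acts upstream of Sp7, had 47 and 33 reads, and its interval included 1 (0.773, 0.480 to 1.23).

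Spp1, osteopontin, and Pdpn, podoplanin, were the bone-list genes on the other side. Spp1 was at 773 TPM in WT, 1613 in the knockout, 675 in miR-26a KO and 811 in miR-26a KO + mimic, so the knockout stood above all other libraries. Both genes are also expressed outside bone. Sparc, or osteonectin, a collagen-binding glycoprotein of many matrices, was lower by less than 2-fold, from 12612 to 8809 TPM (0.698, 0.685 to 0.712).

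Genes that put mineral into matrix divided sharply. Among 11 members, 3 were below 0.5: Alpl, the phosphatase that frees phosphate from pyrophosphate, at 0.192 (0.157 to 0.233); Sgms2, a sphingomyelin synthase, at 0.182 (0.134 to 0.244); and Smpd3, which cleaves sphingomyelin, at 0.232 (0.173 to 0.306). Mgp, an inhibitor of mineralisation, went from 12465 to 6617 TPM (0.531, 0.511 to 0.552). The remaining genes stood near 1, among them Enpp1 at 1.08 and Ank at 1.08, which supply pyrophosphate. The list median was accordingly -0.03. Slc13a5, a citrate transporter known from bone and liver, had the lowest ratio of any gene with a symbol in the files, at 103 reads in WT and 2 in the knockout (0.0214, 0.00255 to 0.0792). Its level was 29.6 TPM in WT, 0.633 in the knockout and 7.58 and 7.38 in the miR-26a KO libraries.

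**Figure D2:**
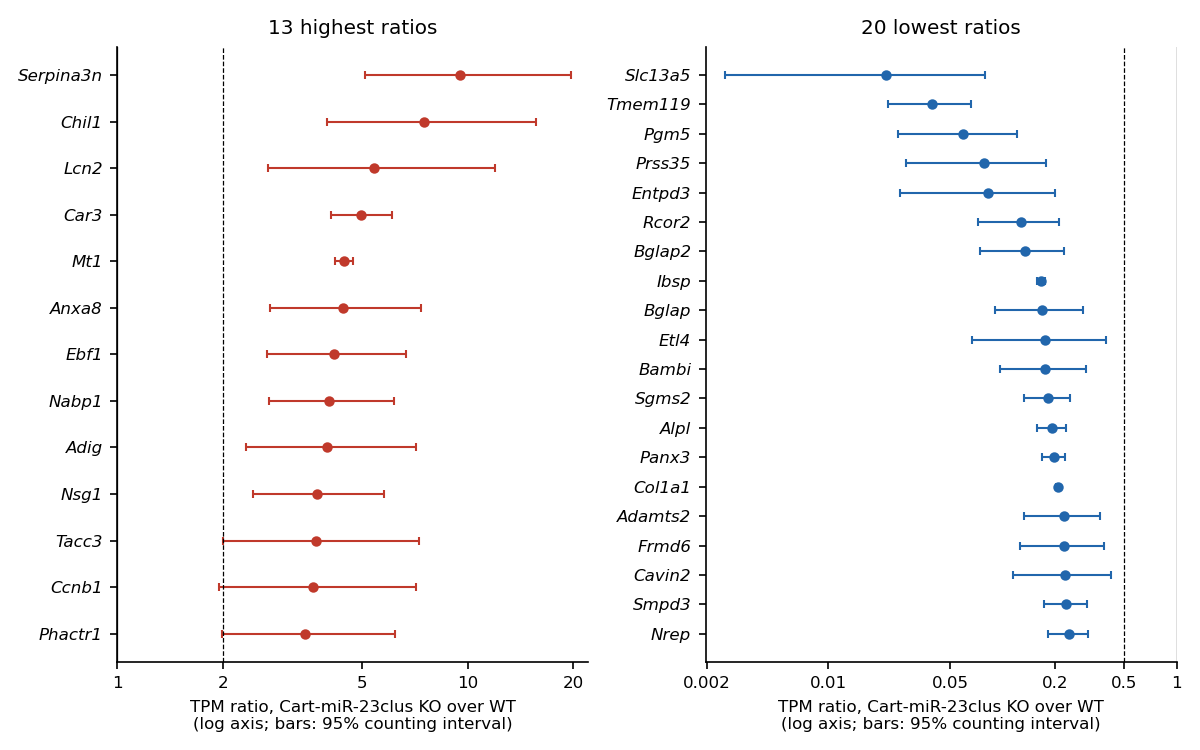
The 13 genes with the highest and the 20 with the lowest TPM ratio, Cart-miR-23clus KO over WT (horizontal axes, log scale), among genes with a symbol in the files. Points are the ratio of 1 library a group and bars the exact 95% counting interval on the same scale; dashed lines mark 2 and 0.5. Bars are widest where reads are few, as for Slc13a5 (103 and 2 reads) and Lcn2 (10 and 49 reads), and hardly visible for Col1a1.

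Hypertrophic chondrocytes are enlarged cells of the growth plate that precede bone. Of 12 genes of that stage, several of them shared with the bone list, 7 were below 0.5 and 1 above 2, with intervals below 1 for 9 and a median log2 ratio of -1.19. Panx3, a channel of prehypertrophic cells and osteoblasts, was at 408 TPM in WT, 80.4 in the knockout, 235 in miR-26a KO and 299 in miR-26a KO + mimic (0.197, 0.168 to 0.230). Pth1r, the receptor for parathyroid hormone and PTHrP, was at 712, 193, 336 and 504 TPM in the same order (0.271, 0.242 to 0.302). Mef2c, a transcription factor required for hypertrophy, was at 68.8 TPM in WT and 18.3 in the knockout (0.266, 0.188 to 0.371). In each of these genes the knockout was lowest and WT highest.

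The collagenase Mmp13, by contrast, was only moderately lower, at 507 TPM in WT and 330 in the knockout (0.650, 0.596 to 0.709), below the 871 and 925 of the miR-26a KO libraries. Col10a1, the collagen that defines the hypertrophic cell, was on the other side of 1, with 105 reads in WT and 148 in the knockout (1.55, 1.20 to 2.01). Vegfa, which draws vessels into hypertrophic cartilage, had an interval that included 1 (0.912, 0.621 to 1.33). The genes of this stage therefore did not move as a block. Ptch1, receptor and transcriptional target of hedgehog proteins, went from 15.2 to 4.64 TPM (0.304, 0.202 to 0.448).

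Cartilage matrix genes went both ways. Of 24 members 3 were below 0.5 and 3 above 2, and intervals lay below 1 for 12 and above 1 for 8 (median log2 ratio -0.22). Ucma, a small Gla-rich protein of the upper growth plate, was at 3631 TPM in WT, 1448 in the knockout, 1562 in miR-26a KO and 1101 in miR-26a KO + mimic (0.399, 0.362 to 0.439). Matn1, a matrilin that bridges collagen fibrils, was at 1193, 480, 418 and 203 TPM (0.402, 0.372 to 0.434). Col11a1, a minor chain of the cartilage fibril, was at 2293, 1069, 1649 and 1555 TPM (0.466, 0.443 to 0.491). In all 3 genes WT stood above every other library, and the knockout was lowest only for Col11a1.

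Col2a1, the main cartilage collagen, and Acan, the large proteoglycan aggrecan, were closer to level. Col2a1 had a ratio of 0.772 (0.760 to 0.785) and Acan of 0.896 (0.860 to 0.934), with intervals made narrow by deep reads. Hapln1, the link protein that holds aggrecan on hyaluronan, was lower (0.561, 0.481 to 0.653). Col9a1 was lower too (0.620) and its partner chain Col9a2 higher (1.32, 1.17 to 1.48). Comp, a pentameric protein that binds collagens, was at 169 TPM in WT and 287 in the knockout (1.70, 1.50 to 1.92).

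Cytl1, a secreted chondrocyte protein, Chad, which binds integrins, and Cilp2 of the cartilage intermediate layer were the 3 above 2. Cytl1 was at 35.4 TPM in WT, 106 in the knockout, 230 in miR-26a KO and 277 in miR-26a KO + mimic (3.00, 2.03 to 4.52). Chad was at 9.12, 25.1, 56.3 and 67.8 TPM (2.75, 1.51 to 5.26). Cilp2 was at 12.6, 32.7, 65.1 and 54.0 TPM (2.59, 1.89 to 3.59). For these 3 genes WT was lowest of the libraries, and the miR-26a KO libraries exceeded the knockout.

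Among 15 metalloproteinases and inhibitors, 4 were below 0.5 and 1 was above 2 (median log2 ratio -0.43). Adamts2, which trims the amino end of fibrillar procollagens, had 103 and 21 reads (0.225, 0.133 to 0.361). Bmp1, which trims the other end and was counted with collagen folding genes instead, had 51 and 22 (0.475, 0.274 to 0.797). Htra1, a secreted serine protease, was at 159 TPM in WT and 57.0 in the knockout, while the miR-26a KO libraries were above WT at 203 and 226 (0.359, 0.277 to 0.460). The remaining genes of this list below 0.5 were Reck, a membrane-bound inhibitor, at 0.367, and Adamts1 at 0.493. Adamts5, the main aggrecanase of mouse cartilage, had 63 and 34 reads (0.594, 0.380 to 0.916). Timp2, an inhibitor of metalloproteinases, was higher in the knockout at 1310 TPM against 887 (1.48, 1.41 to 1.54), and Timp3 was almost level at 1.04.

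**Figure D3:**
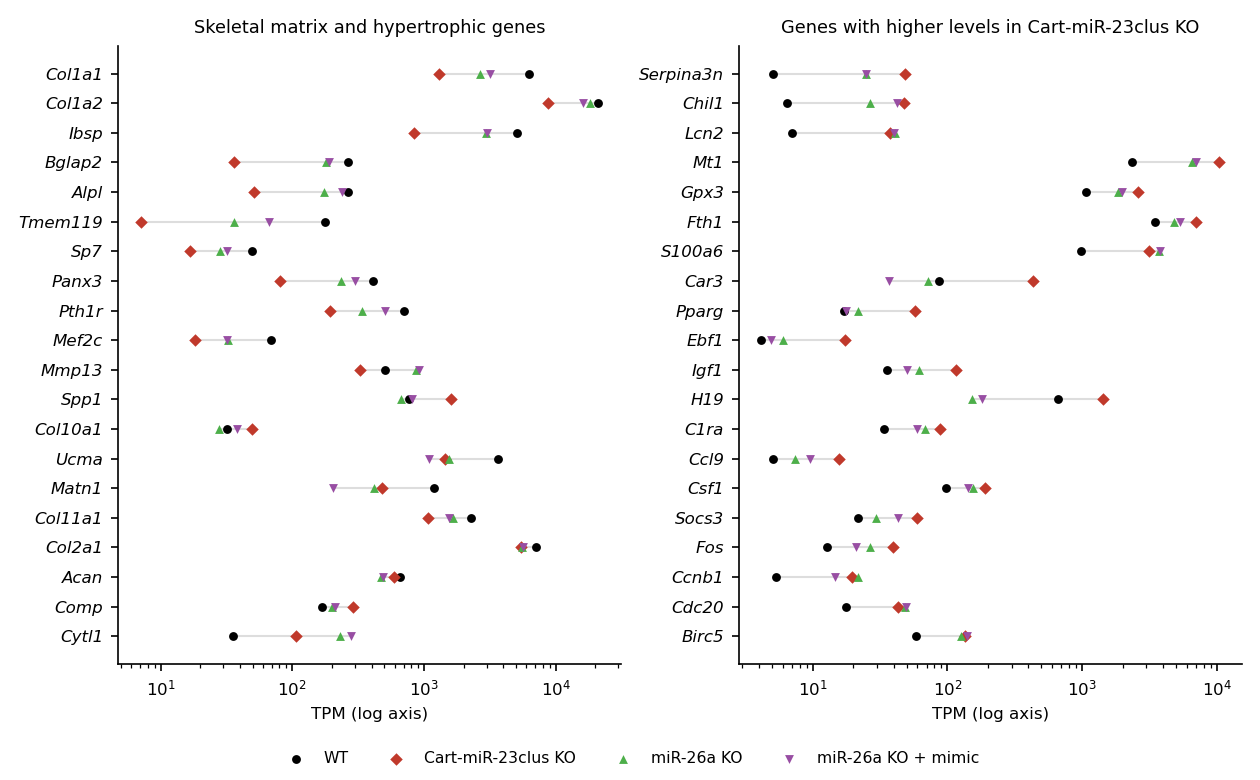
TPM (log axes) of 20 skeletal matrix and hypertrophic genes (left) and 20 genes higher in the knockout (right) in each of the 4 libraries of the series, 1 library a group. The grey line spans the lowest to the highest library; values are to be compared along a line and not between genes. On the left Ibsp runs from 842 TPM in Cart-miR-23clus KO to 5063 in WT, and on the right Lcn2 is near 40 TPM in every library but WT, whereas Car3 is high in Cart-miR-23clus KO only.

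Signalling genes with low ratios were spread over several pathways. Of 29 genes of TGF-beta and BMP signalling 3 were below 0.5 and none was above 2 (median log2 ratio -0.09), with intervals below 1 for 6 and above 1 for 4. Bambi, a decoy receptor that dampens both branches, had 100 reads in WT and 16 in the knockout (0.176, 0.0970 to 0.300). Tgfbr2, the type II receptor for TGF-beta, had 275 and 93 (0.372, 0.291 to 0.473). Fst, follistatin, which traps activins, had 71 and 31 (0.481, 0.305 to 0.743). Tgfbr3, a co-receptor, was on the other side at 1.96 (1.38 to 2.83). Axon guidance genes held 4 of 14 below 0.5, led by Nrp2, a co-receptor for class 3 semaphorins and VEGF, at 316 and 91.3 TPM (0.289, 0.250 to 0.333). Its relative Nrp1 was higher in the knockout (1.33, 1.06 to 1.69). Pdgfa, a growth factor ligand, was at 122 TPM in WT and 35.8 in the knockout (0.294, 0.223 to 0.384).

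Several other genes had ratios as low. Pgm5, a phosphoglucomutase relative found at cell adhesions, had 148 reads in WT and 8 in the knockout (0.0595, 0.0252 to 0.120). Prss35, of the trypsin family, had 84 and 6 (0.0786, 0.0281 to 0.178), and Entpd3, an ectonucleotidase, 67 and 5 (0.0822, 0.0258 to 0.201). Rcor2, a corepressor subunit, was at 318 TPM in WT, 40.8 in the knockout, and 110 and 107 in the miR-26a KO libraries (0.128, 0.0727 to 0.212). Mme, the peptidase neprilysin, was at 970 and 276 TPM (0.284, 0.238 to 0.339), and Itm2a, a membrane protein of cartilage and muscle, at 385 and 129 (0.335, 0.286 to 0.391). WT was the highest library for Pgm5, Prss35, Entpd3, Rcor2, Mme and Itm2a, and the knockout the lowest.

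On the other side, 3 secreted proteins had the highest ratios among members, leaving aside annotated pseudogenes. Listed genes are not ranked here, and with them 26 genes rather than 11 were above 4. Of 6 acute phase and innate defence genes, Lcn2 among them, 1 was above 2, with intervals above 1 for 2 and below 1 for 1 (median log2 ratio 0.23). Of 5 serpin and plasminogen activator genes, Serpina3n among them, 1 was above 2, with intervals above 1 for 2 and below 1 for 3. Serpina3n, a serine protease inhibitor, had 11 reads in WT and 95 in the knockout, with 5.10 TPM in WT, 48.5 in the knockout, 25 in miR-26a KO and 24.7 in miR-26a KO + mimic (9.51, 5.08 to 19.7). Chil1, a chitinase-like glycoprotein of cartilage and macrophages, had 11 and 75 reads and was at 6.40, 48.0, 26.8 and 42.4 TPM (7.51, 3.96 to 15.7). Lcn2, lipocalin-2, which binds bacterial siderophores, had 10 and 49 reads and was at 6.97, 37.6, 40.5 and 40.0 TPM (5.39, 2.70 to 11.9). WT was lowest in all 3, and for Lcn2 the other 3 libraries were alike.

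Complement and chemokine genes included several with higher levels in the knockout, although few had enough reads. Of 9 complement genes 3 were above 2 and none below 0.5, and intervals lay above 1 for 5 (median log2 ratio 0.76). C1ra, a protease of the C1 complex, was at 33.7 TPM in WT and 87.7 in the knockout, with 68.4 and 59.3 in the miR-26a KO libraries (2.60, 2.06 to 3.30). C1s1 (2.05) and C4b (1.76, 1.52 to 2.04) act next in the same cascade. The C1q chains, made by macrophages, had intervals that included 1, from C1qa at 1.00 (0.714 to 1.40) to C1qb at 1.30 (0.938 to 1.81). Of 6 chemokine and cytokine genes 2 were above 2: Ccl9, with 16 and 45 reads (3.10, 1.72 to 5.87), and Cx3cl1, with 41 and 79 (2.12, 1.44 to 3.17). Intervals lay above 1 for 4 of the 6, and Il18 (0.771) and Mif (0.964) had intervals that included 1. Csf1, the growth factor of macrophages, was at 97.7 TPM in WT and 192 in the knockout (1.96, 1.71 to 2.26). Socs3, a feedback inhibitor of cytokine receptors, went from 58 to 144 reads (2.73, 2.00 to 3.77).

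Macrophage genes moved little beside these. Of 12 members none was past 2-fold, and intervals lay above 1 for 2, Csf1r (1.98, 1.50 to 2.64) and Adgre1 (1.98, 1.12 to 3.61), and below 1 for Mpeg1 (0.503). Lyz2, the most abundant of them, was level at 518 and 507 TPM (0.979, 0.878 to 1.09). The 6 macrophage markers were present in every library, with a summed TPM of 864 in WT, 1048 in the knockout, 338 in miR-26a KO and 596 in miR-26a KO + mimic. Their part in the higher immune genes was not tested. Of 22 interferon and antigen presentation genes 1 was above 2, Ifit3 (2.13, 1.60 to 2.85), and intervals lay above 1 for 7 and below 1 for 1. Ifitm3, which blocks virus entry, was at 494 and 970 TPM (1.96, 1.72 to 2.24).

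Metallothionein 1 had the largest absolute increase. Mt1, a cysteine-rich protein that binds zinc and copper, was at 2352 TPM in WT, 10420 in the knockout, 6499 in miR-26a KO and 7045 in miR-26a KO + mimic (4.43, 4.17 to 4.71). Genes against oxidative damage were divided between higher and level. Of 38 members 5 were above 2 and none below 0.5, and intervals lay above 1 for 18 and below 1 for 2 (median log2 ratio 0.26). Gpx3, the secreted glutathione peroxidase, was at 1078 TPM in WT and 2602 in the knockout (2.41, 2.23 to 2.61). Nqo1, a quinone reductase induced by NRF2, had 37 and 80 reads (2.38, 1.59 to 3.62), and G6pdx, which makes NADPH, 57 and 116 (2.24, 1.62 to 3.13). Fth1, the heavy chain of ferritin, was at 3511 and 7005 TPM (just under 2, interval 1.93 to 2.06). For Mt1, Gpx3 and Fth1 alike WT was the lowest library and the knockout the highest.

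Many lysosomal genes were higher by less than 2-fold. None of 35 was past 2-fold, yet the interval lay above 1 for 23 and below 1 for 1 (median log2 ratio 0.36). Npc2, which carries cholesterol out of the lysosome, was at 256 and 496 TPM (1.94, 1.78 to 2.10). Ctsk, the collagen-cleaving cathepsin, was at 121 and 221 TPM (1.83, 1.52 to 2.20). Ctsk is also an osteoclast marker. The summed TPM of the 4 osteoclast markers was 124 in WT, 241 in the knockout, 176 in miR-26a KO and 255 in miR-26a KO + mimic, with Acp5 at 4 reads in WT and 26 in the knockout and Mmp9 and Ocstamp at 0 in both. Both members of the osteoclast list, Ctsk and Nfatc1 (1.58), had intervals above 1, and the part of osteoclasts in the lysosomal values was not tested. Ctsd, the most deeply read, differed by only 1.14 (1.10 to 1.18). Cytoplasmic ribosomal protein genes went the opposite way. None of 81 was past 2-fold, but intervals lay below 1 for 54 and above 1 for 3 (median log2 ratio -0.22). Rpl34 went from 4425 to 2462 TPM (0.556, 0.522 to 0.593) and Rps14 from 14618 to 11946 (0.817, 0.785 to 0.851).

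Among the mRNAs of mitochondrial DNA, intervals lay above 1 for 5 of 8 and below 1 for COX1 (0.848, 0.790 to 0.911). ND4 was at 25938 TPM in WT and 33371 in the knockout (1.29, 1.27 to 1.30), and ND2 at 2332 and 4019 (1.72, 1.64 to 1.81). The nuclear genes of the same respiratory complexes were centred near 1, with a median log2 ratio of -0.03 over 81 genes and intervals above 1 for 14 and below 1 for 7.

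Genes of mitosis were the group with the highest ratios. Of 78 listed genes 38 had under 50 reads and 11 were left aside, and of the 29 members 19 were above 2 and none below 0.5, intervals lay above 1 for 25 and below 1 for 0, and the median log2 ratio was 1.10. Ccnb1, the cyclin that starts mitosis, had 14 reads in WT and 46 in the knockout (3.62, 1.95 to 7.12), and its kinase Cdk1 85 and 166 (2.15, 1.65 to 2.83). Tacc3, a spindle protein, had 14 and 47 reads (3.70, 2.00 to 7.27). Birc5, survivin, of the chromosomal passenger complex, was at 58.6 TPM in WT, 135 in the knockout, 125 in miR-26a KO and 139 in miR-26a KO + mimic (2.30, 1.67 to 3.20). Cdc20, which activates the anaphase-promoting complex, was at 17.6, 42.9, 48.7 and 49.3 TPM (2.44, 1.59 to 3.79). For Birc5 and Cdc20 the WT library was low and the other 3 were alike. Tacc3 differed among them, at 5.02 TPM in WT, 18.6 in the knockout, 9.45 in miR-26a KO and 16.2 in miR-26a KO + mimic. The summed TPM of the 29 members was 2008, 3364, 2770 and 2879 in the same order, highest in the knockout.

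Genes of DNA replication showed a smaller difference. Of 20 members 3 were above 2, namely Mcm3 (2.27), Tk1 (2.07) and Rrm1 (2.06), and intervals lay above 1 for 5 and below 1 for 0 (median log2 ratio 0.40). Pcna, the clamp that holds polymerases on DNA, had 41 and 31 reads, with an interval that included 1 (0.832, 0.505 to 1.36). Of the cell cycle inhibitors, Cdkn1a was lower in the knockout at 587 TPM against 1036 (0.567, 0.510 to 0.630), and Cdkn2a at 100 against 169 (0.595, 0.448 to 0.784). Btg2, an antiproliferative target of p53, was higher, with 67 and 160 reads (2.63, 1.97 to 3.55).

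Btg2 is also an immediate early gene, induced within minutes of a stimulus. Of 18 such genes 5 were above 2 and none below 0.5, with intervals above 1 for 8 and below 1 for 2 (median log2 ratio 0.14). Fos, a subunit of AP-1, was at 12.7 TPM in WT, 39.5 in the knockout, 26.4 in miR-26a KO and 21.0 in miR-26a KO + mimic (3.11, 2.00 to 4.97). Ier2 (3.30, 2.15 to 5.22) and Junb (2.32, 1.75 to 3.09) were higher too, while Klf4, a zinc finger factor, was lower (0.739, 0.593 to 0.920).

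**Figure D4:**
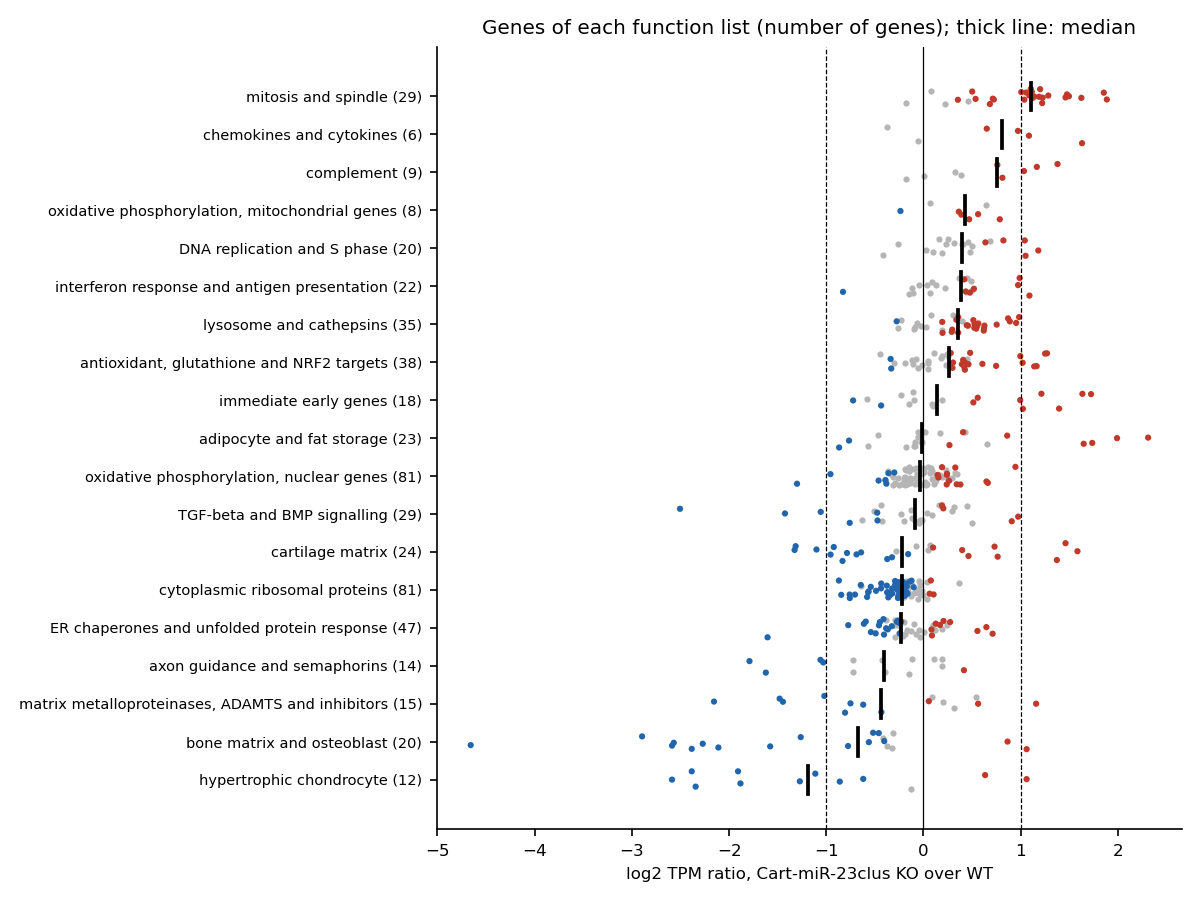
Log2 TPM ratio, Cart-miR-23clus KO over WT, of the genes in 19 function lists, with the number of genes in brackets. Each point is a gene, red or blue where its 95% counting interval lies above or below 1 and grey where it includes 1; the thick line is the list median, and vertical spread within a list is for display only. Mitosis has the highest median (1.10) and the hypertrophic chondrocyte list the lowest (-1.19), and the ribosomal and lysosomal lists are shifted within 2-fold.

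Fat storage genes were divided. A further 4 listed genes were left aside, and of 23 members 4 were above 2 and none below 0.5, but the median log2 ratio was -0.01, and intervals lay above 1 for 7 and below 1 for 2. Car3, a carbonic anhydrase abundant in fat and muscle, was at 86.5 TPM in WT, 429 in the knockout, 71.6 in miR-26a KO and 36.6 in miR-26a KO + mimic (4.96, 4.08 to 6.07). Pparg, the transcription factor that directs adipocyte formation, was at 17.1, 57.0, 21.8 and 17.6 TPM (3.33, 2.29 to 4.94). Adig, adipogenin, had 18 and 65 reads (3.98, 2.33 to 7.12), and Dgat2, which makes triglyceride, 13 and 37 (3.13, 1.63 to 6.42). Car3 and Pparg were thus high in the knockout and not in the other 3 libraries. The defining adipocyte markers were at or near 0, with Adipoq at 8 reads in WT and 9 in the knockout, Plin1 at 0 and 1, Cfd at 1 and 5, and Retn at 1 and 0. Fatty acid desaturases were lower, Scd2 at 0.548 (0.462 to 0.648) and Scd1 at 0.588 (0.404 to 0.847).

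Ebf1, Igf1 and H19 were also highest in the knockout. Ebf1, an early B-cell factor also active in mesenchymal progenitors, was at 4.16 TPM in WT, 17.3 in the knockout, 5.98 in miR-26a KO and 4.93 in miR-26a KO + mimic (4.15, 2.67 to 6.67). Igf1, the growth factor, was at 35.8, 117, 61.2 and 50.1 TPM (3.26, 2.37 to 4.56), whereas Irs1, which relays its signal, was lower (0.526, 0.467 to 0.593). H19, an imprinted long noncoding RNA, was at 661, 1433, 152 and 181 TPM (2.17, 2.04 to 2.31). H19 was therefore unequal in WT and the miR-26a KO libraries as well. S100a6, a calcium-binding protein, went from 989 to 3149 TPM (3.19, 2.93 to 3.46), below the 3716 and 3784 of the miR-26a KO libraries.

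Some extreme ratios belonged to pseudogenes and to a predicted gene. The annotated pseudogenes Gm10154 (10 and 149 reads), Gm29216 (16 and 144) and Gm5905 (27 and 181) were above 7, and Gm10800, annotated as protein-coding, had 176 reads in WT and 1 in the knockout (0.00626, 0.000158 to 0.0353). Gm10800 was at 247 TPM in miR-26a KO and 19.3 in miR-26a KO + mimic. Whether reads of these genes belong to other loci was not tested, so the values are uncertain. Annotated pseudogenes made up 106 of the members, with 4 above 2 and 4 below 0.5.

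Matches to the 3 seeds were counted in the longest annotated 3′ UTR (GENCODE M21) of each gene, which 6533 members had. Any transcript with an annotated stop codon was used, whatever its type. Such a stretch can run over many exons, and some of them may be coding in other transcripts. The shares and lengths below include such stretches. The letters searched on the mRNA strand were AATGTGA for miR-23, ACTGTGA for miR-27 and CTGAGCC for miR-24, and matches of different families can overlap by 1 letter at most. Among all members 44.2% held at least 1 match. The share was 47.4% of the 135 genes above 2 and 40.3% of the 149 below 0.5. The study named the genes of its printed list as target candidates. The 51 of them with 50 or more reads were above 2 and are not in this set. The share above 2 therefore does not cover every raised gene. By family, miR-27 matches were in 19.7% of all members, 25.9% of those above 2 and 16.8% of those below 0.5. The corresponding shares were 18%, 17.8% and 16.8% for miR-23, and 21.1%, 24.4% and 19.5% for miR-24. Median UTR length was 1483 bases over all members, 1028 above 2 and 1574 below 0.5. Genes with a miR-23 match had a median log2 ratio of 0.02 and those without of -0.03, and the pairs for miR-27 were 0.01 and -0.03, and for miR-24 -0.02 and -0.02. Their UTRs also differed in length, with a median of 2333 bases with any match and 927 without.

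Of 13 genes reported as targets of these miRNAs in other settings, 1 was above 2 and 2 were below 0.5, and the median log2 ratio was -0.24. Pparg was the one above, and Sp7 (0.335) and Mdm4 (0.492) were those below. Fbxw7 was higher (1.72, 1.13 to 2.64), Mmp13 and Adamts5 were lower as given above, and Smad3 had an interval that included 1 (0.849, 0.628 to 1.15). The lower values are of 1 library a group. With replicates, the study found no significant difference from Control in Adamts5 transcript of chondrocytes. It reported none in ADAMTS5 or MMP13 staining of the joints of aged or operated mice either. Sites in 4 genes with high ratios and in Tgfbr2, with a low ratio, are printed with the seed match in capitals, from GENCODE transcripts on GRCm38, so that the letters searched can be seen in place. They lie in the 3′ UTR of Pparg (match at chr6:115490283-115490289, plus strand), Igf1 (chr10:87934152-87934158, plus), Ebf1 (chr11:45006535-45006541, plus), Ccl9 (chr11:83574847-83574853, minus, and chr11:83573024-83573030, minus) and Tgfbr2 (chr9:116087815-116087821, minus, and chr9:116087570-116087576, minus).
Pparg, miR-27: ctaagaaatttACTGTGAaaaagcattta
Igf1, miR-23: ctttgaatgtcAATGTGAaatgtggcatg
Ebf1, miR-23: ttagctgtttcAATGTGAtttttaaacaa
Ccl9, miR-27: taagtggataaACTGTGAgagtggtctgt
Ccl9, miR-24: cctagctgttcCTGAGCCaacacgtggtc
Tgfbr2, miR-23: attcaaataggAATGTGAatgaatgcaca
Tgfbr2, miR-27: ccatgagtagtACTGTGAgcgcatttccc
Serpina3n and Chil1 each held 1 miR-24 match, and Lcn2, Car3, S100a6 and Fos held none. Among genes with low ratios, Tgfbr2 (0.372) and Ptch1 (0.304) each held 2 miR-23, 1 miR-27 and 2 miR-24 matches. The Ptch1 stretch of 9012 bases was spliced over distant exons, with miR-23 matches at chr13:63532609-63532615 and chr13:63511564-63511570. Matches in Ptch1 may therefore lie outside the 3′ UTR of its usual mRNA. Bambi (0.176) held 2 miR-27 matches, Mdm4 (0.492) held 1 for miR-23 and 1 for miR-27, and Sp7, Col1a1 and Ibsp held none. A match is a run of letters and not a measured site.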

How the data were processed

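RNA was measured by 3′ mRNA sequencing (QuantSeq, single-end reads) of cultured chondrocytes, with 1 library a group. The authors deposited an estimated count per gene, which here is a whole number of reads, and TPM values; the submitters' processing notes name mm10 and GRCm38.p6. The aligner, counter and annotation are not given in the sources used here. Counts were deposited for 3 libraries and TPM for 4. Because reads come from 3′ ends while TPM divides by length, levels were compared within a gene only. TPM of the sample tables and of the series table did not differ (0 values).

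Ratios were taken from TPM for genes with 50 or more reads in both libraries together. Intervals used gene-read totals as offset, on a scale 1.02 times that of TPM; calls above or below 1 were made on that scale, and printed intervals were moved onto the TPM scale. Sequenced reads numbered 2527005 (WT) and 2201616 (knockout), with 80.94% and 83.24% aligned, and 3 reads correspond to 0.000199% and 0.000224% of gene reads. The upper bound was 2.75 times the lower (median) for genes of 50 to 99 reads and 1.21 times from 1000 reads. Named genes were the 30 highest and 30 lowest ratios, the 15 largest changes of TPM each way, and in each of 57 function lists the 4 furthest from 1 each way with an interval leaving out 1 and the most abundant; others of a list are named for their role, and the gene models without a symbol were added after their values were seen. Some genes that the rule selects are not reported here. Members and lists were chosen with earlier results of these data known. The files give no symbol for 155 members, named from GENCODE by identifier. In 309 genes no TPM was given. Python 3.11.15, pandas 2.3.3, scipy 1.17.1, edgeR 4.0.16 and DESeq2 1.42.0 (scaling factors only) were used. Intervals were run on simulated counts that hold counting error only. That run cannot show how they hold with PCR copies or differences between cultures. No test between genotypes was made, and alternatives are given at the end.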

Additional observations from a re-analysis of the deposited data

How the results depend on the processing

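No paired analysis was possible because each group has 1 library. The number of genes above 2-fold and below 0.5 followed the read minimum. It was 380 and 419 at 20 reads together, 63 and 79 at 100 reads, and 1303 and 1092 with no minimum. With 20 reads in each library 102 genes were below 0.5, and the number above 2 stayed within 1.5 times of 141. With 5 TPM added before the ratio the numbers were 69 and 76. The 99% interval lay above 1 for 623 genes and below 1 for 548. An offset on the TPM scale, chosen after seeing the data, gave 884 and 977 in place of 982 and 858. The other scalings moved the median log2 ratio by 0.033 (share of gene reads), 0.006 (TMM) and -0.023 (DESeq2), and the share of higher genes among those past 2-fold was 47.5% with TPM, 54.2%, 48.3% and 43.4%. These shares are of members, from which 51 genes above 2 were left aside. Over all genes tested 192 were above 2 and 156 below 0.5 with TPM. The list medians reversed for the superficial zone (0.33, and -0.054 at 20 reads) and for serpins (-0.677, and 0.843 with the printed list kept in), each a list of few genes. The median of the fibrous and basement membrane collagens also changed sign, from -0.058 to 0.248 at 100 reads, and was -0.324 at 20 reads. Counting each list under each alternative once, 304 medians moved by less than their counting error and 4 by more. A further 2, of the superficial zone and of serpins, were counted as reversed. Counting each named gene under each alternative once, 1041 ratios stayed within their interval and 15, all of deeply read genes under another scaling, did not. With 1 library a group no spread between cultures can be given.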

Other observations

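Of the 141 genes above 2-fold 57 were in a function list, and of the 156 below 0.5-fold 53 were, shares of 40.4% and 34.0% against 16.5% over all members. The lists were drawn up with earlier results of these data known, so nothing is read from these shares. Among lists not described above, the minor fibrous and basement membrane collagens went both ways. Col12a1 (0.478, 0.377 to 0.603) and Col5a1 (0.517, 0.482 to 0.555), which assemble with type I collagen, were lower with it, and all of Col6a1 (1.61, 1.39 to 1.87), Col4a1 (1.50, 1.17 to 1.92) and Col4a2 (1.60, 1.28 to 2.00) were higher. Of 30 genes for collagen folding and crosslinking 2 were below 0.5 and intervals lay below 1 for 14, among them Loxl2, a lysyl oxidase (0.558, 0.471 to 0.660), while Loxl3 was higher (1.91, 1.49 to 2.45). Glycolysis and hypoxia genes included Aldoc, with 67 and 16 reads (0.263, 0.142 to 0.459), and Slc16a3, the lactate exporter, with 48 and 14 (0.321, 0.164 to 0.592), against Epas1, a hypoxia-inducible factor (1.95, 1.22 to 3.15). The contractile gene Acta2 had 321 and 596 reads (2.04, 1.78 to 2.35), and Tpm1, a tropomyosin, 1180 and 531 (0.495, 0.446 to 0.549), with Myh11, the smooth muscle myosin, at 0 reads in both libraries. Of 110 solute carriers 6 were below 0.5 and none was above 2.

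Further genes with high ratios included Anxa8, an annexin, at 11.2 TPM in WT, 49.3 in the knockout, 79.4 in miR-26a KO and 100 in miR-26a KO + mimic (4.40, 2.73 to 7.38). Nabp1, a single-strand DNA binding protein, had 32 and 117 reads (4.03, 2.70 to 6.15), and its 3′ UTR held 2 miR-27 and 2 miR-24 matches. F2r, the thrombin receptor, had 36 and 107 reads (3.27, 2.22 to 4.92).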
